A study of Mus musculus with 9 samples.

Results

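The genes described here are 9 that carry or relay signals from Fc receptors and related receptors of myeloid cells: the receptors for immunoglobulin G (IgG) Fcgr1, Fcgr2b, Fcgr3 and Fcgr4, the signalling adaptors Fcer1g and Tyrobp, the kinase Syk, and the CD300 receptors Cd300lf and Cd300a. They were taken by symbol from the deposited table, and the values of their 20 transcript entries were added to 1 value per gene, so they are 9 of 25468 genes. Bulk RNA sequencing had measured them in whole hearts of wild-type (WT) mice, with 3 libraries 7 days after acute myocardial infarction, 3 libraries 1 day after it and 3 libraries from sham-operated mice. The labels give no strain, sex, age or time of sham collection. They also do not say that each library is a separate animal, so the spread behind each p-value may be technical. Hdc-/- hearts, which the series mentions as well, were not analysed here. Levels are FPKM (fragments scaled to transcript length and library size), a unit per length, so levels of different genes can be compared.

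Receptors for IgG bind the constant part of antibodies that coat particles or form immune complexes. In mouse, Fcgr1 (high affinity), Fcgr3 and Fcgr4 are activating and have no signalling motif of their own. They pair with the FcR gamma chain, encoded by Fcer1g, whose immunoreceptor tyrosine-based activation motif (ITAM) is phosphorylated by Src family kinases and then binds the kinase Syk. Tyrobp encodes DAP12, an ITAM adaptor of the same design that serves receptors such as TREM2. Fcgr2b is the inhibitory receptor for IgG, with an inhibitory motif (ITIM) that recruits lipid phosphatases. Cd300lf and Cd300a are lipid-binding receptors with ITIMs. In the infarcted heart, these genes are known mainly from macrophages, monocytes and neutrophils, and mast cells also use Fcer1g in their receptor for immunoglobulin E.

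For a pair of the genes the file separates transcripts whose difference is a stretch of coding sequence with a known meaning, and the stretches are shown because the entries are compared below. Transcripts Fcgr2b-201 and Fcgr2b-204 carry an exon of 141 bases, 47 codons, in the cytoplasmic tail, at chr1:170963325-170963465 on the minus strand of GRCm38, and Fcgr2b-202 lacks it. The form with the exon is known as FcγRIIB1 of B cells, and the form without it as FcγRIIB2 of myeloid cells. Transcripts Syk-201 and Syk-203 carry an exon of 69 bases, 23 codons, in the linker before the kinase domain, at chr13:52624708-52624776 on the plus strand, and Syk-202, the form called SykB, lacks it. Capitals mark the exon, and 30 bases of the neighbouring exons stand in lower case on each side. The sequences were read 5′ to 3′ from GENCODE M21.
Fcgr2b-201: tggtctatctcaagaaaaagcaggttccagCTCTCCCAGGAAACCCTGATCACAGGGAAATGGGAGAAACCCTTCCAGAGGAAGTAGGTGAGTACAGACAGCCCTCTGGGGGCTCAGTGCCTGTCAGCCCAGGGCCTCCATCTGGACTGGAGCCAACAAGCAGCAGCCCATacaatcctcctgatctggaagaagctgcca
Fcgr2b-202: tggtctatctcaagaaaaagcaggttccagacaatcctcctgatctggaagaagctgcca
Syk-203: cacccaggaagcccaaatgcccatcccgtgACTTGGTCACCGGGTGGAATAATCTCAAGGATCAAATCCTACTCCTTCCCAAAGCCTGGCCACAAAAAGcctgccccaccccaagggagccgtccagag
Syk-202: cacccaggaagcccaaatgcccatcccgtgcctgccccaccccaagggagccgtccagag

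The 250 bases before the annotated start are shown for 5 of the genes, since their values are set against each other below and they differ in a pair of motifs. RefSeq windows (GRCm38.p6) were matched for 8 of the 9 genes. Capitals mark GAGGAA or its complement TTCCTC, the core of sites of PU.1, the master factor of myeloid cells, and TTCNNNGAA, the core of sites of STAT factors; these letters do not overlap in any window shown. GAGGAA was found on either strand in a window of 6 of the 8 genes, against 25.9% of all 27025 genes with windows of this length. TTCNNNGAA was found in 1 of the 8, Fcgr1, against 8.13% of all genes. A match is a description of letters and not a site, and a window with no match says nothing of a factor.
Fcgr1 (chr3:96293970-96294219, minus strand): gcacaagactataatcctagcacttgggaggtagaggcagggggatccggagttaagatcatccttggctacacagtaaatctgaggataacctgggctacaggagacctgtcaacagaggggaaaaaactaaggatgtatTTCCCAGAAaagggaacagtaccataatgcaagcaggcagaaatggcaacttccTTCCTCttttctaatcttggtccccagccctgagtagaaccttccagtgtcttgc
Fcgr4 (chr1:171018676-171018925, plus strand): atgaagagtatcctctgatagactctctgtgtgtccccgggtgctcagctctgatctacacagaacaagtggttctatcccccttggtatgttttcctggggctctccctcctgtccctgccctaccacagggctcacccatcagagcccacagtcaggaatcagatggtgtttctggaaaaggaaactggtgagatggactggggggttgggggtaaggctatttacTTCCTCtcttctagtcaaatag
Cd300lf (chr11:115133993-115134242, minus strand): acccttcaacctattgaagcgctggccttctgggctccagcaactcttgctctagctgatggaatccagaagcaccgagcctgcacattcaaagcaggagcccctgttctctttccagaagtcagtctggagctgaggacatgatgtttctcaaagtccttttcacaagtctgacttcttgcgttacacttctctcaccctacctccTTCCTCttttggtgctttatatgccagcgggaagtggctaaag
Cd300a (chr11:114889791-114890040, plus strand): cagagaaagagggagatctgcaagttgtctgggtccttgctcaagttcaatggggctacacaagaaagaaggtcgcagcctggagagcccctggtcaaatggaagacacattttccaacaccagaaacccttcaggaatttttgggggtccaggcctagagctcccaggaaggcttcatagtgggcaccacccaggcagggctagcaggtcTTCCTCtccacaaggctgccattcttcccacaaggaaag
Fcgr2b (chr1:170976072-170976321, minus strand): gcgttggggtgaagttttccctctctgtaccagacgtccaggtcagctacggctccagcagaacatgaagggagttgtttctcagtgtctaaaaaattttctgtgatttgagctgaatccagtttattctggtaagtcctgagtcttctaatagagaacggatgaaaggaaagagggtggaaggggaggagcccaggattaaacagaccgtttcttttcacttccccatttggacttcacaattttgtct
Fcgr1 holds GAGGAA 55 bases and TTCNNNGAA 109 bases before the start. Fcgr4 holds GAGGAA 22 bases, Cd300a 39 bases and Cd300lf 43 bases before the start, and Fcgr2b holds neither motif. In the windows that are not printed, GAGGAA lay 6 and 15 bases before the 2 starts of Fcgr3 and 9 bases before the second start of Syk, and Fcer1g held neither motif.

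FPKM totals and the sums of cardiomyocyte and fibroblast markers separated sham from infarct libraries. Airway, atrial, adipocyte and T cell markers differed between libraries of the same group. FPKM summed to 521643 to 679204 in day 7 hearts, 597380 to 729940 in day 1 hearts and 768943 to 792632 in sham hearts, and the reads behind these totals are unknown. Myh6, the heavy chain gene that defines adult mouse cardiomyocytes, was at 2919 FPKM or more in each of the 9 libraries. The 8 cardiomyocyte markers summed to 12547 to 22033 FPKM at day 7, 16155 to 19772 FPKM at day 1 and 30598.5 to 33447 FPKM in sham hearts, and 6 of the 8 were called lower at day 7 and 4 at day 1. The 7 fibroblast markers summed to 3849 to 5304 FPKM at day 7, 1577 to 2102 FPKM at day 1 and 1083.5 to 1367 FPKM in sham hearts, and 5 were called higher at day 7 and 3 at day 1. The part of these shifts in the results below was not tested. Markers of airway and lung summed to 1760 FPKM in day 1 replicate 2 and 202 FPKM in sham replicate 1, and to 17.0 FPKM or less in the other libraries. Atrial markers ran from 229 FPKM in sham replicate 3 to 11057 FPKM in day 1 replicate 1. That last library is kept where the airway-marked libraries are left out below, so atrial content stays uneven there. Adipocyte markers summed to 472 FPKM in sham replicate 1 and to 116 FPKM or less elsewhere. Day 7 replicate 2 held 96.2 FPKM of T cell markers, against 19.2 FPKM or less elsewhere. Counts of called genes among the 9, in the lists around them and among the myeloid markers are therefore also given without day 1 replicate 2 and sham replicate 1. Without them, 2 cardiomyocyte markers were called lower at day 7 and limma called 0 lower at day 1, where 3 were at an unadjusted p under 0.05, and 4 fibroblast markers were called higher at day 7 and 1 at day 1. Since these are bulk libraries, fewer cells of a type and less RNA per cell cannot be told apart.

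At day 1 after infarction all 9 genes were higher than in sham hearts. The largest differences were those of Fcgr1, Cd300lf and Fcgr4, and the smallest that of Syk. At day 7 after infarction 4 genes were higher than in sham hearts: the inhibitory receptors Fcgr2b and Cd300a, the adaptor Tyrobp and Syk. From day 1 to day 7, Fcgr1, Cd300lf and Syk fell. Changes were tested with limma on log2(FPKM + 1) across the 13514 genes with a mean of 1 FPKM or more, with Benjamini-Hochberg adjustment over all of them, and an adjusted p under 0.05 counted as a call. The 9 genes all had a mean above 1 FPKM, Cd300lf and Cd300a through their infarct values, since both averaged under 1 FPKM in sham hearts.

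**Figure D1:**
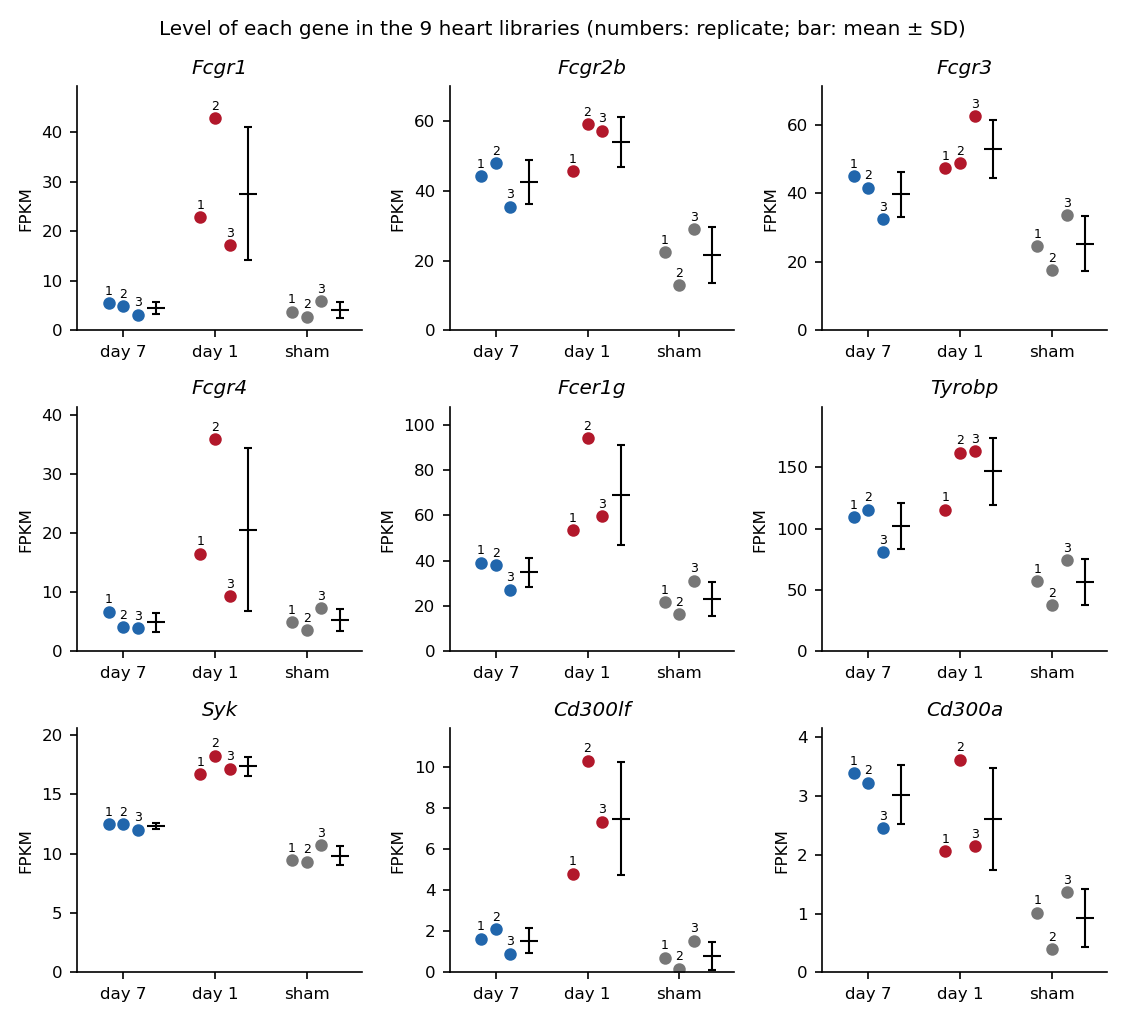
FPKM of each of the 9 genes (vertical axes, from 0) in the libraries of day 7, day 1 and sham hearts; points are libraries with their replicate number, and the bar is the group mean ± SD (n = 3). All 3 day 1 libraries lie above all 3 sham libraries for each gene, and the airway-marked day 1 replicate 2 is the highest of the 9 libraries for 7 of the 9 genes, all but Fcgr3 and Tyrobp, for example Fcgr1 (42.9 FPKM) and Fcer1g (94.1 FPKM).

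At day 1, 9 of the 9 genes were called higher than in sham hearts, against 13.4% of all genes tested, and the groups did not overlap for 9 of 9, against 22.5% of all genes. The median log2 fold change of the 9 was 1.40, beside -0.01 over all genes tested. At day 7, 4 of the 9 were called higher than in sham hearts, against 15.7% of all genes, with a median of 0.61 beside -0.02 over all genes, and 4 did not overlap, against 25% of all genes. Both comparisons use the same 3 sham libraries. Between day 7 and day 1 hearts, 3 of the 9 were called lower at day 7, against 2.14% of all genes, with a median of -0.52 beside -0.01, and 6 lay lower at day 7 with no overlap, against 14.1% of all genes.

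Without the 2 libraries that carry airway markers, the fold changes of the 9 genes kept their sign in the 3 comparisons, but fewer passed. At day 1 against sham, 2 of the 9 were called, Fcgr1 (log2 fold change 2.03, adjusted p 0.0389) and Syk (0.70, adjusted p 0.0376), against 1.89% of all genes called higher. The other 7 had log2 fold changes of 0.77 to 2.0 with adjusted p of 0.0505 to 0.118, and 9 of 9 were higher at an unadjusted p under 0.05. At day 7 against sham, 1 was called, Cd300a (1.14, adjusted p 0.0319), against 7.98% of all genes. Between day 7 and day 1, limma called 0 of the 9, against 0.192% of all genes called lower, while 5 were lower at an unadjusted p under 0.05. With fewer libraries to overlap, the groups then did not overlap for 9 of the 9 at day 1 against sham (28.1% of all genes). This held for 4 at day 7 against sham (28.8%) and for 6 lower at day 7 than at day 1 (17.5%). Cd300a lay higher at day 7 than at day 1 with no overlap, as did 16.3% of all genes.

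The high-affinity receptor Fcgr1 was high at day 1. It was at 5.46, 4.92 and 3.18 FPKM in the day 7 libraries, 22.9, 42.9 and 17.2 FPKM in the day 1 libraries, and 3.81, 2.76 and 5.89 FPKM in the sham libraries. The day 1 libraries lay above all others, with the airway-marked replicate 2 highest, and day 7 and sham overlapped. The mean was 27.6 ± 13.5 FPKM at day 1, against 4.15 ± 1.59 FPKM in sham hearts (SD, n = 3 each), 6.66 times as high. The log2 fold change was 2.42 (SE 0.34, adjusted p 0.00346 by limma). At day 7 the mean was 4.52 ± 1.19 FPKM, with a log2 fold change of 0.12 against sham (95% interval -0.65 to 0.89, adjusted p 0.809) and of -2.30 against day 1 (SE 0.34, adjusted p 0.0142).

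Fcgr4, an activating receptor of intermediate affinity, had a similar order of groups and a wide spread at day 1. Its level was 6.72, 4.06 and 3.96 FPKM in the day 7 libraries, 16.5, 36.0 and 9.38 FPKM in the day 1 libraries, and 4.94, 3.64 and 7.29 FPKM in the sham libraries. Day 1 lay above both other groups with no overlap, and its lowest library, replicate 3, was near the highest sham library. It was higher at day 1 than in sham hearts (log2 fold change 1.63, SE 0.43, adjusted p 0.0234), but no longer when 1 of 4 libraries was left out: day 1 replicate 2 (1.14, adjusted p 0.0541), day 1 replicate 1 (1.68, adjusted p 0.0532), sham replicate 1 (1.61, adjusted p 0.0623) or sham replicate 2 (1.43, adjusted p 0.0835). At day 7 the log2 fold change was -0.08 against sham (95% interval -1.05 to 0.89, adjusted p 0.901), with a sign that turns under other scalings, and -1.71 against day 1 (adjusted p 0.0573).

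Fcgr3, the low-affinity activating receptor, was at 45.1, 41.7 and 32.5 FPKM in the day 7 libraries, 47.3, 48.9 and 62.6 FPKM in the day 1 libraries, and 24.6, 17.6 and 33.7 FPKM in the sham libraries. The 3 groups stepped down from day 1 to day 7 to sham, and day 7 overlapped sham through sham replicate 3. Fcgr3 was higher at day 1 than in sham hearts (log2 fold change 1.07, SE 0.23, adjusted p 0.0115). At day 7 its log2 fold change against sham was 0.67 (95% interval 0.15 to 1.18), with an adjusted p of 0.0512 just outside the threshold. Rescaling the libraries to a common total gave 1.02 (adjusted p 0.0165), on a scale where the median of all genes also moved, to 0.30.

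Fcgr2b, the inhibitory receptor for IgG, was at 44.1, 48.0 and 35.5 FPKM in the day 7 libraries, 45.7, 59.1 and 57.2 FPKM in the day 1 libraries, and 22.5, 13 and 29.0 FPKM in the sham libraries. Both infarct groups lay above sham with no overlap, and they overlapped each other. Fcgr2b was higher than in sham hearts at day 1, by 1.35 on the log2 scale (SE 0.26, adjusted p 0.00839) and at day 7 (1.01, SE 0.26, adjusted p 0.0196). Between day 7 and day 1 the log2 fold change was -0.34 (95% interval -0.92 to 0.24, adjusted p 0.473).

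The ITAM adaptors held the highest levels beside Fcgr2b and Fcgr3. Tyrobp, which encodes DAP12, had the highest mean of the 9 genes in every group, with no overlap with the next gene. It was at 109, 115 and 80.6 FPKM in the day 7 libraries, 115, 162 and 163 FPKM in the day 1 libraries, and 57.3, 37.5 and 74.5 FPKM in the sham libraries. Both infarct groups lay above every sham library. Tyrobp was higher than in sham hearts at day 1, by 1.40 on the log2 scale (SE 0.26, adjusted p 0.00744) and at day 7 (0.88, SE 0.26, adjusted p 0.0318), and the log2 fold change from day 1 to day 7 was -0.52 (95% interval -1.11 to 0.06, adjusted p 0.265).

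Fcer1g, the FcR gamma chain, was at 39.1, 38.1 and 27.2 FPKM in the day 7 libraries, 53.4, 94.1 and 59.7 FPKM in the day 1 libraries, and 21.6, 16.3 and 31.1 FPKM in the sham libraries. All day 1 libraries were above all others, and day 7 replicate 3 fell inside the sham range. Fcer1g was higher at day 1 than in sham hearts (log2 fold change 1.55, SE 0.27, adjusted p 0.00677). The day 7 difference from sham was 0.61 (95% interval -0.02 to 1.23, adjusted p 0.119), and that from day 1 was -0.94 (95% interval -1.57 to -0.32, adjusted p 0.0881). Rescaling to a common total gave 0.96 at day 7 against sham (adjusted p 0.0458), where the median of all genes was 0.30. The receptor for immunoglobulin E, which uses the same chain, contributed little RNA: Fcer1a was at 0.185 FPKM or less and Ms4a2 at 0.118 FPKM or less in every library.

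Syk, the kinase that binds phosphorylated ITAMs, showed the smallest difference of the 9 at day 1 against sham and the smallest standard error in each comparison. It was at 12.5, 12.5 and 12.0 FPKM in the day 7 libraries, 16.7, 18.2 and 17.1 FPKM in the day 1 libraries, and 9.46, 9.31 and 10.7 FPKM in the sham libraries. The 3 groups did not overlap in any pairing. Syk was higher than in sham hearts at day 1, by 0.76 on the log2 scale (SE 0.08, adjusted p 0.00134) and at day 7 (0.30, SE 0.08, adjusted p 0.0202) and fell between them (-0.46, SE 0.08, adjusted p 0.0203).

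The 2 CD300 receptors took opposite places at the 2 times. Cd300lf was at 1.64, 2.09 and 0.911 FPKM in the day 7 libraries, 4.80, 10.3 and 7.32 FPKM in the day 1 libraries, and 0.716, 0.185 and 1.54 FPKM in the sham libraries. Cd300a was at 3.39, 3.23 and 2.45 FPKM in the day 7 libraries, 2.06, 3.62 and 2.15 FPKM in the day 1 libraries, and 1.02, 0.395 and 1.36 FPKM in the sham libraries. Day 1 stood above both other groups for Cd300lf. For Cd300a both infarct groups stood above sham, and they overlapped each other only through the airway-marked day 1 replicate 2.

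Cd300lf was higher at day 1 than in sham hearts (log2 fold change 2.24, SE 0.33, adjusted p 0.00381) and fell from day 1 to day 7 (-1.71, SE 0.33, adjusted p 0.0285). Its day 7 difference from sham was 0.53 (95% interval -0.21 to 1.27, adjusted p 0.236). Cd300a was higher than in sham hearts at day 1 (0.91, SE 0.23, adjusted p 0.0202) and at day 7 (1.09, adjusted p 0.0107), and the log2 fold change between the infarct groups was 0.18 (95% interval -0.34 to 0.69, adjusted p 0.691). The day 1 call of Cd300a was lost without day 1 replicate 2 (0.72, adjusted p 0.0690) and without sham replicate 2 (0.70, adjusted p 0.0609).

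**Figure D2:**
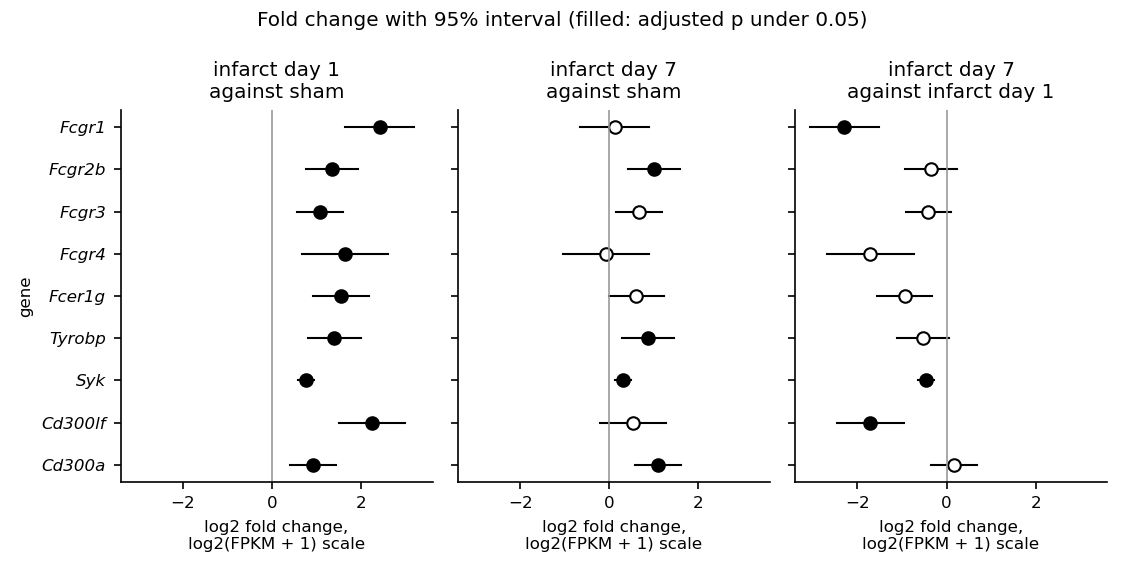
Log2 fold change of each gene on the log2(FPKM + 1) scale (horizontal axis) with its 95% interval, for day 1 against sham, day 7 against sham and day 7 against day 1; filled points have an adjusted p under 0.05. Filled points number 9, 4 and 3 in the panels from left to right, and the Syk intervals are the narrowest.

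The day 7 counts rested on few libraries. Of the 4 genes called at day 7 against sham, 1 was called when either day 7 replicate 1 or day 7 replicate 2 was left out. Without sham replicate 1 or sham replicate 2, 2 were called. Of the 3 genes called lower at day 7 than at day 1, 1 was called when either day 1 replicate 2 or day 7 replicate 3 was left out.

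Ranked by level, Tyrobp came first in all 3 groups, and Fcer1g, Fcgr2b and Fcgr3 came next in an order that changed with the group and within overlapping ranges. At day 1, Fcgr1 and Fcgr4 stood above Syk in the mean, with ranges of Fcgr4 and Syk that overlapped. At day 7 and in sham hearts both lay below Syk with no overlap between Syk and Fcgr4. The 2 CD300 genes were lowest in each group, and their own order was Cd300a above Cd300lf at day 7 without overlap, Cd300lf above Cd300a at day 1 without overlap, and overlapping ranges in sham hearts.

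Ratios of 2 genes within a library hold whatever its scaling, apart from the added 1 FPKM. Each was compared with an exact two-sided permutation test over libraries, whose smallest possible p with 3 against 3 is 0.1, so that no ratio could pass; over the 15 tests the smallest adjusted p was 0.136. The log2 ratio of Fcgr1 to the inhibitory Fcgr2b was -2.99 ± 0.17 at day 7, -1.03 ± 0.62 at day 1 and -2.10 ± 0.20 in sham hearts (SD, n = 3), with no overlap between any groups. Without logarithms, Fcgr1 stood at 0.124, 0.103 and 0.0896 of the Fcgr2b level in the day 7 libraries, 0.500, 0.726 and 0.30 in the day 1 libraries, and 0.169, 0.212 and 0.203 in the sham libraries. Relative to the inhibitory receptor, Fcgr1 was thus at its lowest at day 7, below sham by 0.89 on the log2 scale (exact permutation p 0.1).

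Fcgr4 over Fcgr2b was -2.90 ± 0.36 at day 7, -1.53 ± 0.90 at day 1 and -1.81 ± 0.20 in sham hearts. The day 7 libraries lay below those of day 1 and of sham, while day 1 and sham overlapped, and without day 1 replicate 2 the day 1 difference from sham turned to -0.14. Fcgr3 over Fcgr2b was -0.10 ± 0.12 at day 7, -0.03 ± 0.21 at day 1 and 0.25 ± 0.15 in sham hearts, with day 7 below every sham library.

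Fcer1g over Tyrobp was -1.52 ± 0.06 at day 7, -1.10 ± 0.33 at day 1 and -1.25 ± 0.11 in sham hearts, again with day 7 below both other groups and without overlap. Cd300lf over Cd300a was -0.68 ± 0.21 at day 7, 1.20 ± 0.25 at day 1 and -0.12 ± 0.20 in sham hearts. Day 1 lay above both other groups on this scale and in plain ratios. Day 7 and sham did not overlap on this scale but did in plain ratios, through sham replicate 2, so that their separation rests on the added 1 FPKM. As plain ratios, Cd300lf stood at 0.482, 0.647 and 0.372 of the Cd300a level at day 7, 2.33, 2.84 and 3.40 at day 1, and 0.704, 0.468 and 1.13 in sham hearts.

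**Figure D3:**
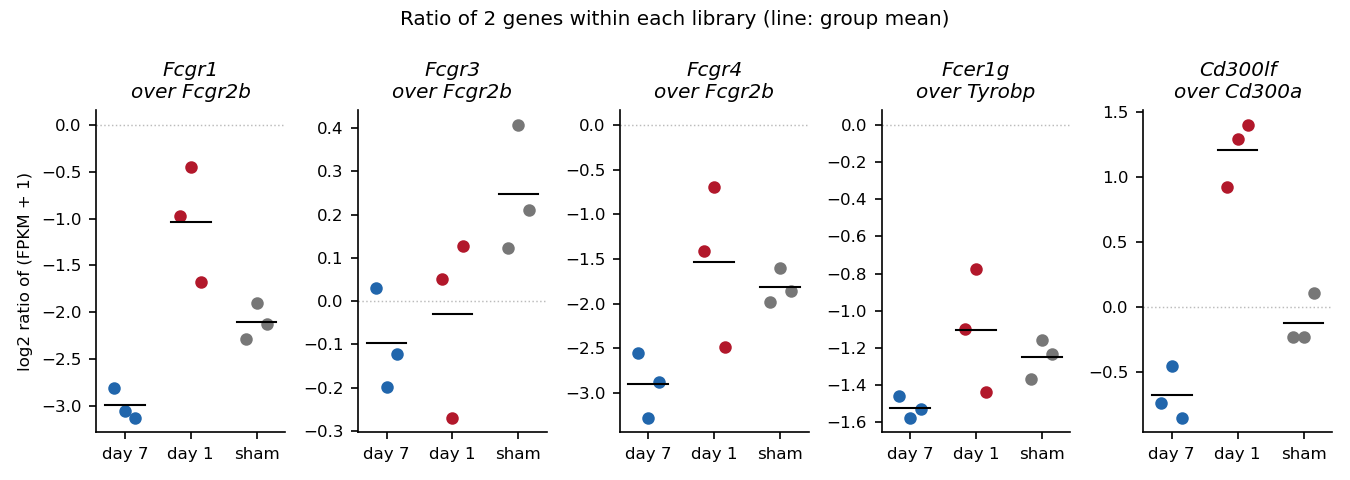
Log2 ratio of (FPKM + 1) of the 2 genes named above each panel (vertical axes, which do not start at 0 and differ in range), with 1 point per library of day 7, day 1 and sham hearts; the line is the group mean and the dotted line marks equal levels. The Cd300lf to Cd300a ratio is above equality in the 3 day 1 libraries and below it in the 3 day 7 libraries, and the 3 lowest Fcgr1 to Fcgr2b ratios are those of day 7.

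The transcript entries with the exons shown above kept similar shares while the genes changed. Entries of Fcgr2b with the whole exon, the form known from B cells, took 15.4%, 16.3% and 15.1% of the gene's FPKM in the day 7 libraries, 14.5%, 13.7% and 14.0% in the day 1 libraries, and 10.3%, 13.1% and 13.8% in the sham libraries. The entry without it, the myeloid form, took 82.8% to 87.4% in all 9. In FPKM, the myeloid form averaged 35.7 ± 5.11 at day 7, 46.1 ± 6.51 at day 1 and 18.4 ± 7.10 in sham hearts (SD, n = 3 each), and the form with the exon averaged 6.65 ± 1.24, 7.59 ± 0.844 and 2.67 ± 1.18 in the same order of groups. The 3 day 7 shares lay above the other 6.

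The 8 markers of B and plasma cells summed to 19.8 to 61.8 FPKM at day 7. They summed to 14.9 to 40.7 FPKM at day 1 and 3.23 to 9.09 FPKM in sham hearts. Most of each sum came from the plasma cell markers Jchain and Sdc1, while the B cell genes Cd79a and Ms4a1 stayed at 2.68 FPKM or less. Jchain and Sdc1 did not move together. In day 1 replicate 3, Sdc1 was at 13.2 FPKM with Jchain at 0.404 FPKM and Mzb1, another plasma cell marker, at 0.215 FPKM. The sum of that library was thus nearly all Sdc1. Within sham and day 1 hearts the sums did not follow the Fcgr2b shares. Sham replicate 1 had the highest sum of its group (9.09 FPKM) and the lowest share (10.3%), as had day 1 replicate 2 (40.7 FPKM and 13.7%). At day 7, replicate 2 had both the highest sum (61.8 FPKM) and the highest share (16.3%) of its group. The part of these cells in the shares was not tested. The Syk entry without the exon, SykB, took 10.0%, 11.6% and 12.0% at day 7, 14.2%, 10.2% and 12.1% at day 1 and 10.4%, 13.7% and 12.5% in sham hearts, with overlap of all groups. These shares depend on how the authors divided reads among transcripts, for which the sources used here name no tool, so they have no test.

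**Figure D4:**
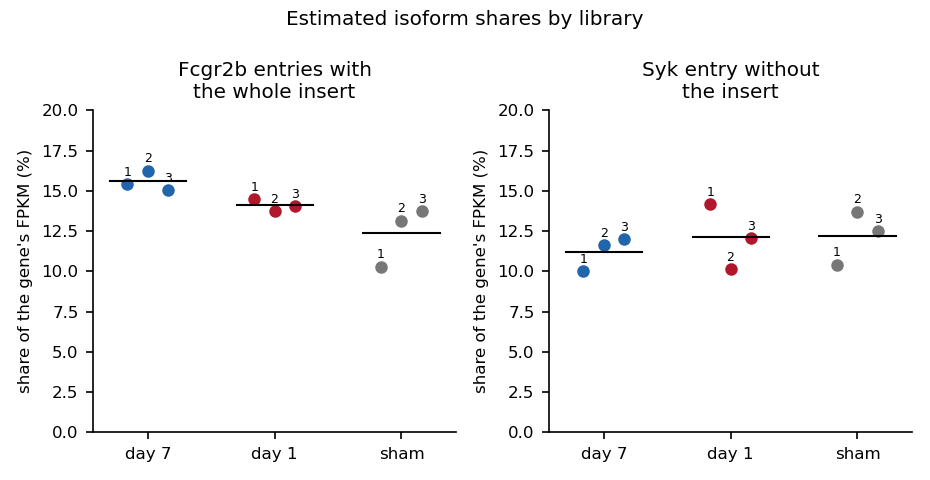
Share of the gene's FPKM (vertical axis, percent, from 0) held by the Fcgr2b entries with the whole exon and by the Syk entry without its exon, with 1 numbered point per library and a line at the group mean. The Fcgr2b shares run from 10.3% to 16.3% with the 3 day 7 libraries highest, and the Syk shares run from 10.0% to 14.2% with overlapping groups.

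Some reads could come from stretches of sequence that also occur in other genes. Of all windows of 75 bases in the transcripts of Fcgr3, 5.78% also occur in Fcgr2b, and of those of Fcgr2b 8.26% occur in other genes, Fcgr3 among them. The share was 3.06% for Cd300lf, with Cd300ld, and 1.85% for Cd300a, with Cd300c2 among others. It was 0% for the other 5 genes. Fcgr2b also overlaps an exon of Gm38204 on the opposite strand, and the sources used here do not say whether counting used strand.

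Lists of genes around the receptors were counted in the same fit, and no called gene of the lists changed sign under the 4 other scalings. Of all genes tested, 13.4% were called higher and 14.7% lower at day 1 against sham. At day 7 these shares were 15.7% and 17.3%, and 2.14% were lower at day 7 than at day 1. The day 7 counts of activating receptors, proximal kinases, phosphatases and transcription factors called higher lay near the share of all genes. That of inhibitory receptors lay below it. With a common total, 18.1% of all genes were called higher and 4.45% lower at day 1 against sham, 28.2% and 3.9% at day 7 against sham, and 0.533% lower at day 7 than at day 1. Of 15 tested activating receptors and partners that act through FcR gamma, DAP12 or DAP10, 8 rose at day 1 against sham, and 3 were higher at day 7. Of the 8, 5 averaged under 1 FPKM in sham hearts (Clec4e, Cd300lb, Pilrb1, Sirpb1a and Sirpb1c) and so were tested only because of their infarct values, which favours rises in this count. Clec4d, a receptor for mycobacterial lipids, averaged 7.86 ± 1.32 FPKM at day 7, 12.8 ± 5.23 FPKM at day 1 and 1.23 ± 0.445 FPKM in sham hearts, with log2 fold changes of 2.58 at day 1 (adjusted p 0.00184) and 2.0 at day 7 (adjusted p 0.00338) against sham. Clec4e, Mincle, a receptor for dead cells and microbial lipids, rose at day 1 (1.76, adjusted p 0.00292) and was lower at day 7 than at day 1 (-1.53, adjusted p 0.0151). Cd300lb rose at both times (1.75 and 1.30).

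Trem2, a lipid receptor of macrophages that signals through DAP12, had its highest levels at day 7. It was at 24.2, 22.6 and 15.9 FPKM in the day 7 libraries, 11.4, 13.9 and 17.1 FPKM in the day 1 libraries, and 5.66, 2.35 and 8.22 FPKM in the sham libraries. Against sham, its log2 fold change was 1.87 at day 7 (adjusted p 0.00718) and 1.34 at day 1 (adjusted p 0.0215), and that from day 1 to day 7 was 0.53 (adjusted p 0.388). Sirpb1a, Sirpb1c and Pilrb1 rose at day 1 and fell by day 7 together with Clec4e, which made 4 of the 15 lower at day 7 than at day 1.

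Of 19 tested genes listed as inhibitory receptors and their relatives, 10 rose at day 1. Whether each product carries an ITIM was not checked. Among the 10 were Clec4a3 (log2 fold change 1.98, adjusted p 0.0103), Lilrb4a (1.74, adjusted p 0.00636), Lilr4b (1.65, adjusted p 0.00706) and Pirb (1.49, adjusted p 0.0145). At day 7 against sham 1 was higher, Sirpa, the receptor of the CD47 signal (0.53, adjusted p 0.0341), and Clec4a1 was lower at day 7 than at day 1 (-1.18, adjusted p 0.0465). Rescaling to a common total gave 13 higher at day 1 and 6 at day 7, the second near the 28.2% of all genes on that scale.

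Of 13 tested Src family and other proximal kinases, 6 rose at day 1, among them Fgr (1.83, adjusted p 0.00337), Btk (0.87, adjusted p 0.0178), Lyn (0.75, adjusted p 0.0106), Csk (0.63, adjusted p 0.00916) and Src (0.50, adjusted p 0.0394). Fgr, a kinase of myeloid cells, was lower at day 7 than at day 1 (-1.18, adjusted p 0.0381), and it too averaged under 1 FPKM in sham hearts. Src, which is found in many cell types, had 4.99 ± 0.973 FPKM at day 7, against 1.88 ± 0.359 FPKM in sham hearts (1.05, adjusted p 0.00367), and Csk, the kinase that holds this family inactive, was also higher at day 7 (0.43, adjusted p 0.0307).

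Of 31 tested adaptors and effectors that act after Syk, 18 rose and 1 fell at day 1, and at day 7 against sham 9 rose and 2 fell. Those with the largest rises at day 1 were the phosphoinositide 3-kinase adaptor Pik3ap1 (1.47), the adaptor Fyb (1.44), the exchange factor Vav1 (1.36) and the adaptor Lcp2 (1.35), with adjusted p of 0.00724 to 0.0123. The gene that fell at day 1 was Plcg1, the widely expressed form of phospholipase C gamma (-0.32, adjusted p 0.0382), a call lost with a common total (-0.06, adjusted p 0.758). Grb2 averaged 44.1 ± 1.87 FPKM at day 7, 75.1 ± 3.43 FPKM at day 1 and 64.2 ± 4.04 FPKM in sham hearts, and was lower at day 7 than at day 1 (-0.76, adjusted p 0.00434; with a common total -0.68, adjusted p 0.0670). With a common total, 21 rose at day 1, against 18.1% of all genes, and 23 at day 7, against 28.2%.

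Phosphatases and inhibitory adaptors rose in 7 of 15 at day 1, against 13.4% of all genes. At day 7, 3 were higher, near the 15.7% of all genes. Ptpn6, the phosphatase SHP-1 that ITIMs recruit, averaged 21.1 ± 6.33 FPKM at day 1, against 6.96 ± 1.80 FPKM in sham hearts (1.46, adjusted p 0.00646), and Inpp5d, the lipid phosphatase SHIP-1 that Fcgr2b recruits, rose as well (0.85, adjusted p 0.0163), and is named after its value was seen. Dok2 rose at day 1 (1.21) and was lower at day 7 than at day 1 (-1.18, adjusted p 0.0438), while Dok1, Dok3 and Pag1 were higher at day 7 than in sham hearts (1.05, 0.71 and 0.55).

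Phagocytosis and oxidative burst genes rose in 14 of 23 at day 1, and at day 7 10 were higher and 1 lower. The scavenger receptor Msr1 was at 10.4 ± 2.18 FPKM at day 7, 36.0 ± 6.58 FPKM at day 1 and 5.91 ± 1.60 FPKM in sham hearts, with log2 fold changes of 2.43 at day 1 against sham (adjusted p 0.000902) and -1.70 at day 7 against day 1 (adjusted p 0.00677). The integrin chains Itgam and Itgb2 of complement receptor 3 rose at day 1 (1.55 and 1.52), and Ncf1, a subunit of the phagocyte oxidase, was higher at day 1 (1.42, adjusted p 0.00433) and day 7 (0.77, adjusted p 0.0286). Cd36, which cardiomyocytes and endothelium also express, was lower at day 7 (-0.78, adjusted p 0.0243).

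**Figure D5:**
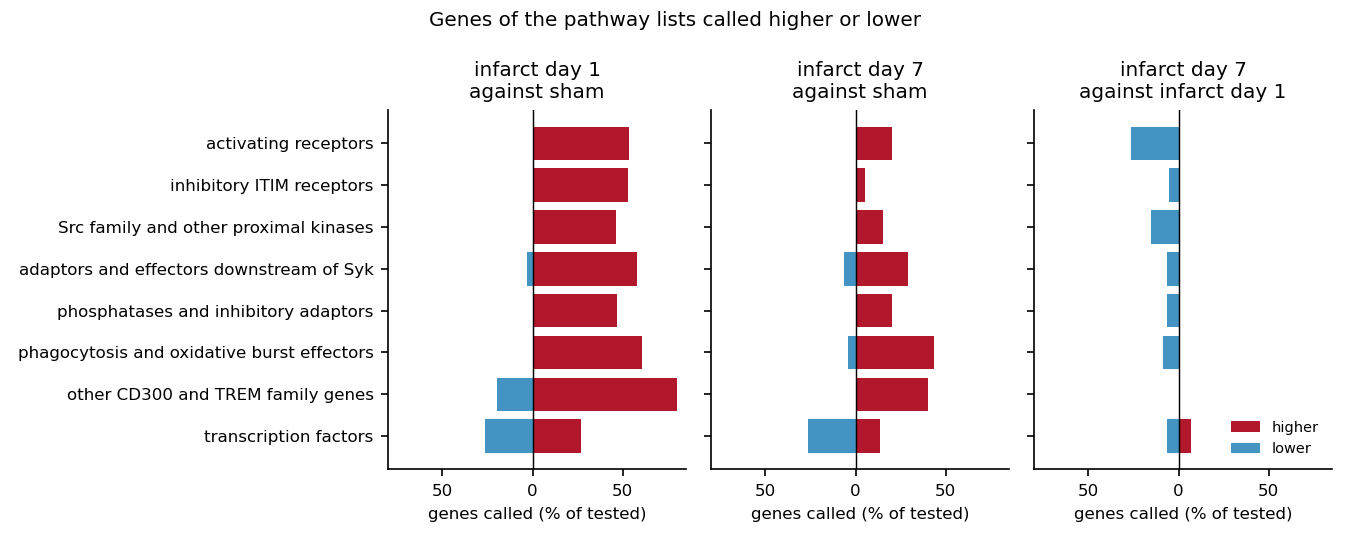
Percent of the tested genes of each list called higher (bars to the right of 0) or lower (bars to the left) by limma for day 1 against sham, day 7 against sham and day 7 against day 1. Each list held 5 to 31 tested genes; over all genes tested, the shares called higher and lower were 13.4% and 14.7% in the first panel, 15.7% and 17.3% in the second and 2.71% and 2.14% in the third.

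Of 5 other tested genes of the CD300 and TREM families, 4 rose at day 1 and 1 fell, with Treml2 at 1.41 (adjusted p 0.00672) among those that rose. The other 3 that rose, Trem2, Cd300lb and Cd300ld, were also counted among the activating receptors, and Treml2 and Cd300lb averaged under 1 FPKM in sham hearts. The gene that fell, Cd300lg, is known from endothelium and not from myeloid cells. It was at 29.2 ± 4.45 FPKM at day 7, 20.3 ± 3.16 FPKM at day 1 and 35.1 ± 1.39 FPKM in sham hearts (-0.77 at day 1 against sham, adjusted p 0.00681). At day 7, 2 were higher than in sham hearts, Trem2 and Cd300lb.

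Of 14 other immunoglobulin receptors in the file, 3 had a mean of 1 FPKM or more over the 9 libraries. Trim21, a cytosolic antibody receptor that interferon induces, was lower than in sham hearts at day 1 (-0.86, adjusted p 0.00847) and at day 7 (-0.85, adjusted p 0.00860). With a common total these were -0.65 (adjusted p 0.0520) and -0.57 (adjusted p 0.0621). Fcgrt, the neonatal Fc receptor, which protects IgG from degradation, averaged 56.4 ± 3.65 FPKM at day 7, 37.6 ± 6.36 FPKM at day 1 and 34.8 ± 6.78 FPKM in sham hearts, and was higher at day 7 than in sham hearts (0.70, adjusted p 0.0158). Lgals3, which binds immunoglobulin E among other ligands, had log2 fold changes of 1.65 at day 1 and 1.23 at day 7 that did not pass (adjusted p 0.0610 and 0.129). Of the immunoglobulin genes, Jchain was analysed, and it was at 3.82, 42.2 and 30.9 FPKM in the day 7 libraries, 5.20, 18.9 and 0.404 FPKM in the day 1 libraries, and 2.86, 0.365 and 0.162 FPKM in the sham libraries (3.36 at day 7 against sham, adjusted p 0.0420).

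Of 15 tested transcription factors of the myeloid lineage, 4 rose and 4 fell at day 1, and 2 rose and 4 fell at day 7 against sham. Spi1, which encodes PU.1, was at 10.5, 10.6 and 6.42 FPKM in the day 7 libraries, 14.7, 19.7 and 13.9 FPKM in the day 1 libraries, and 4.18, 3.53 and 7.70 FPKM in the sham libraries. It was higher at day 1 (1.52, adjusted p 0.00666), with 0.76 at day 7 against sham (adjusted p 0.0580). Runx1 was higher at both times (1.13 and 1.45).

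The factors that fell included Irf1 at both times and Irf7 at day 7, which belong to the interferon response. Irf7 was at 19.2, 19.6 and 18.5 FPKM in the day 7 libraries, 73.9, 141 and 27.2 FPKM in the day 1 libraries, and 129, 146 and 98.6 FPKM in the sham libraries. The day 7 libraries lay below all others, and day 1 overlapped sham through replicate 2. The log2 fold change of Irf7 against sham was -0.89 at day 1 (adjusted p 0.197) and -2.62 at day 7 (adjusted p 0.00732), and that of Irf1 was -0.62 at day 1 (adjusted p 0.0166) and -0.53 at day 7 (adjusted p 0.0261). With a common total, limma called 0 of the 15 factors lower at day 1, with 2 lower at an unadjusted p under 0.05, and 2 lower at day 7, where Irf7 was at -2.29 (adjusted p 0.0125) and Irf1 at -0.19 (adjusted p 0.426). Within the day 1 group, replicate 2 had the highest Irf7, Fcgr1 and Fcgr4 and replicate 3 the lowest of each. Sham hearts had the reverse: replicate 2 had the highest Irf7 and the lowest Fcgr1 (2.76 FPKM) and Fcgr4 (3.64 FPKM). Sham replicate 3 had the lowest Irf7 and the highest Fcgr1 (5.89 FPKM) and Fcgr4 (7.29 FPKM). At day 7, replicate 3 was lowest for each, but replicate 2 was highest only for Irf7. With 3 libraries per group these orders have no test.

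Without the 2 libraries that carry airway markers, 1.89% of all genes were called higher at day 1 against sham. The counts were 2 of 15 activating receptors, 2 of 13 proximal kinases, 2 of 31 genes after Syk and 1 of 23 phagocytosis genes. In the CD300 and TREM families 1 of 5 was called higher. Limma then called 0 inhibitory receptors, 0 phosphatases or inhibitory adaptors and 0 transcription factors higher, where 9, 6 and 5 were higher at an unadjusted p under 0.05. At day 7 against sham 7.98% of all genes were called higher. The counts were 3 of 15 activating receptors, 1 of 19 inhibitory receptors, 1 of 13 proximal kinases and 4 of 31 genes after Syk. They were 1 of 15 phosphatases or inhibitory adaptors and 3 of 23 phagocytosis genes. A further 2 of 5 CD300 and TREM genes and 3 of 15 transcription factors were called higher. The counts of inhibitory receptors, proximal kinases and phosphatases or inhibitory adaptors were below the share of all genes. At day 7 against sham, 2 transcription factors, 1 gene after Syk and Trim21 were called lower (7.75% of all genes), and at day 1 1 transcription factor and Trim21 were (1.08%). Between day 7 and day 1 limma called 0 genes of the lists lower, against 0.192% of all genes. At an unadjusted p under 0.05, 4 activating receptors, 3 inhibitory receptors, 3 proximal kinases and 3 genes after Syk were lower. So were 4 phosphatases or inhibitory adaptors, 3 phagocytosis genes, 1 CD300 or TREM gene and 2 transcription factors.

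Among markers of myeloid cells, the sums of neutrophils and monocytes were highest at day 1. The 7 dendritic cell markers summed to 11.8 to 13.1 FPKM at day 7. At day 1 these 7 summed to 11.5 to 13.2 FPKM, and in sham hearts to 12.6 to 14.3 FPKM. Most of each sum came from the 2 that were tested, Zbtb46 and Clec9a. The others averaged under 1 FPKM, so the sums say little of them. Zbtb46 was called lower at day 1 than in sham hearts (-0.43, adjusted p 0.0431), a call lost with a common total. The 13 neutrophil markers in the file summed to 33.3 to 74.5 FPKM at day 7, 122 to 324 FPKM at day 1 and 48.7 to 70.1 FPKM in sham hearts, and 7 of 7 tested were higher at day 1, of which 3 averaged under 1 FPKM in sham hearts. The neutrophil chemokine receptor Cxcr2 was at 0.398, 0.734 and 0.259 FPKM at day 7, 4.60, 7.51 and 8.38 FPKM at day 1 and 0.364, 0.352 and 0.671 FPKM in sham hearts, while the defining gene Ly6g was at 0.734 FPKM or less in every library and at 0 in 2 sham libraries. The 8 monocyte markers summed to 163 to 217 FPKM at day 7, 378 to 885 FPKM at day 1 and 144 to 199 FPKM in sham hearts, and 7 of 8 were higher at day 1. Without the 2 airway-marked libraries, 2 neutrophil markers were called higher at day 1, and limma called 0 monocyte markers, with 6 and 7 higher at an unadjusted p under 0.05.

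The 12 macrophage markers had another order of groups, with sums of 553 to 667 FPKM at day 7, 510 to 561 FPKM at day 1 and 301 to 453 FPKM in sham hearts. Of these, 6 were higher at day 7 and 4 at day 1 than in sham hearts. Without the airway-marked libraries 4 were called higher at day 7, and limma called 0 at day 1, where 3 were higher at an unadjusted p under 0.05. C1qa, a complement gene of macrophages, was at 199, 206 and 175 FPKM at day 7. It was at 138, 131 and 125 FPKM at day 1 and 124, 97.0 and 131 FPKM in sham hearts. Its higher level was thus at day 7 (0.72, adjusted p 0.00718). Not all markers of the list did so. At day 7 against sham, Lyve1 (0.16, adjusted p 0.668), Folr2 (0.26, adjusted p 0.515), Timd4 (-0.02, adjusted p 0.954) and Cd163 (0.04, adjusted p 0.940) were not called. The part of these cell types in the levels of the 9 genes was not tested.

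Across the 9 libraries, each gene followed the mean of the other 8 with Pearson r from 0.74 for Cd300a and 0.78 for Fcgr4 to 0.99 for Fcer1g, and Fcgr1 reached 0.87. The libraries share their groups and scaling, so these values describe likeness and have no test. Of 8418 other genes with a mean of 5 FPKM or more and no predicted name, the 6 most like the mean of the 9 genes were Evi2a (r = 0.996), Lgmn (0.994), Ncf4 (0.994), Lilrb4a (0.992), C3ar1 (0.991) and Cyth4 (0.990). Lgmn, a lysosomal protease, averaged 85.6 ± 11 FPKM at day 7, 158 ± 19.5 FPKM at day 1 and 52.8 ± 18.3 FPKM in sham hearts. C3ar1, the receptor of a complement fragment, averaged 12.9 ± 3.2 FPKM at day 7, 24.4 ± 5.37 FPKM at day 1 and 6.18 ± 3.56 FPKM in sham hearts.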

How the data were processed

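Hearts were profiled by RNA sequencing in 9 libraries, 3 per group. TRIzol RNA went into VAHTS Universal V6 libraries, per the labels' protocols. Per the submitters' processing notes, FastQC 0.11.9, HISAT2 2.1.0 and HTSeq 0.11.2 were used with build GRCm39; the sources used here name no annotation, strand setting or tool that divided reads among transcripts. The authors deposited 1 FPKM value per transcript and library, for 55361 entries. Of the positive values 11.8% were under 1e-06, so reads had been counted in fractions and the depth is unknown. FPKM totals were not equal between libraries.

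FPKM were added per gene ID. For the lists, the ID with the higher mean stood for a symbol with several. The main test was limma 3.58.1 (R 4.3.3) on log2(FPKM + 1) with a variance trend, 1 mean per group and all 9 libraries, for genes with a mean of 1 FPKM or more; this scale understates changes of low genes. Tests were two-sided. Ratios were tested with exact permutation in scipy 1.17.1. The procedure was tested on simulated data.

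The members and the gene lists were chosen with earlier results of these data known. Named genes were the 9 genes, up to 4 called genes with the largest change per list and comparison, and the 6 most alike genes; a few genes the rule names are not reported here. Plcg1, Inpp5d, Lgals3, Irf1, Csk and Src at day 1, and the markers given as absent or low were chosen after their values were seen. Sequences came from GENCODE M21 (GRCm38) and RefSeq (GRCm38.p6), another build than that of the files. Alternatives were the pseudocount, the filter, 4 scalings, the variance model, the groups fitted, the replicate block, array weights, the most expressed transcript, and libraries left out.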

Additional observations from a re-analysis of the deposited data

Results flagged for a closer look

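For 3 of the 9 genes the infarct effect differed between the 2 times. Since both effects are measured against the same sham libraries, their difference is the comparison of day 7 with day 1 hearts, tested with limma. The difference was -2.30 on the log2 scale for Fcgr1 (adjusted p 0.0142), -0.46 for Syk (adjusted p 0.0203) and -1.71 for Cd300lf (adjusted p 0.0285), and in each case all 3 day 7 libraries lay below all 3 day 1 libraries. Without day 1 replicate 2 and sham replicate 1 the differences were -1.94 (adjusted p 0.0580), -0.43 (adjusted p 0.127) and -1.48 (adjusted p 0.143). The marker sums of neutrophils and monocytes were also lower in every day 7 library than in every day 1 library, and their part was not tested.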

How the results depend on the processing

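The direction of the 9 genes at day 1 against sham was the same under all alternatives tried. The count of 9 called moved to 2 without both airway-marked libraries and was 7 to 9 with 1 library left out. At day 7 against sham the count of 4 moved to 1 without both libraries and was 1 to 5 with 1 library left out. With a common total, Fcgr3 (1.02, adjusted p 0.0165) and Fcer1g (0.96, adjusted p 0.0458) were called higher as well, where 28.2% of all genes were. At day 7 against day 1 the count of 3 moved to 1 with a common total, with the replicate block and with the most expressed transcript, and to 0 without both libraries, and was 1 to 3 with 1 library left out. Of the 27 fold changes, each under 22 or 23 alternatives, calls were lost in 46 cases and gained in 10, and 8 signs turned, all of Fcgr4 and Fcgr1 at day 7 against sham, where no call was made. Fcgr4 turned to 0.23 with a common total and 0.12 without mitochondrially encoded genes, and ran from -0.29 to 0.14 with 1 library left out. Fcgr1 turned to -0.075 with array weights and ran from -0.085 to 0.35 with 1 library left out. Of the ratios, 3 turned with 1 library left out: Fcgr3 over Fcgr2b at day 7 against day 1 ran from -0.19 to 0.013 (turned without day 1 replicate 3), and at day 1 against sham Fcgr4 over Fcgr2b ran from -0.14 to 0.76 and Fcer1g over Tyrobp from -0.015 to 0.31 (both turned without day 1 replicate 2). With a common total, the share of all genes called higher at day 7 against sham moved from 15.7% to 28.2%. That scale gave, among the pathway lists, 6 inhibitory receptors (1 in the main test), 4 proximal kinases (2) and 23 genes after Syk (9). It left at most 1 gene per list lower at day 7 than at day 1, where the main test had up to 4 (0.533% and 2.14% of all genes), and 2 factors lower at day 7 than in sham hearts (4). The cause was not tested.

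Replicate numbers showed no clear pairing of the libraries. Same-numbered libraries deviated together with r of 0.05, 0.23 and 0.18 between day 1 and day 7, and of 0.27, -0.37 and 0.23 between day 1 and sham. Between day 7 and sham these were -0.07, -0.26 and -0.13. Libraries with different numbers ran from -0.53 to 0.40. The replicate block gave 9, 3 and 1 called genes in the 3 comparisons. Depth is unknown, and 3 libraries per group limit the precision.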

Other observations

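Of the 3 transcript entries of Fcgr3, the most abundant took 33.6 FPKM on average at day 7 and 44.7 FPKM at day 1. The 3 entries of Cd300lf took 35.9%, 35.1% and 29.0% of the gene at day 1, and below that level the authors' estimates gave single entries near 0 that differed from library to library, so the gene sum is the safer value.

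Natural killer cell markers summed to 5.17 to 12.4 FPKM at day 7, 1.76 to 10.3 FPKM at day 1 and 7.87 to 13.9 FPKM in sham hearts, with Klra8 at 0 in every library. Mast cell markers summed to 7.91 to 24.1 FPKM, 8.32 to 16.5 FPKM and 6.40 to 10.2 FPKM in the same groups. Platelet markers, in cells that also use the FcR gamma chain, summed to 27.0 to 41.8 FPKM at day 7, 69.9 to 164 FPKM at day 1 and 19.1 to 32.2 FPKM in sham hearts, and the chemokine Pf4, which macrophages also express, was higher at day 1 than in sham hearts (log2 fold change 2.01, adjusted p 0.00533). Their part in the Fcer1g and Syk levels was not tested.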
